A study of Drosophila melanogaster with 7 samples.

Results

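The 57 genes described here lie nearest to 4 assembled chromosome ends of Drosophila melanogaster, out of 17753 genes in the count table. On the dm6 build they were taken as the genes starting within the outermost 200000 bases of 2L or 3L, starting within the outermost 240000 bases of X, or ending at or beyond position 31900000 of 3R, where the assembled arm is 32079331 bases long. Genes whose symbols mark them as long noncoding, microRNA or tRNA genes were left out, which removed 18 long noncoding genes and 1 microRNA gene of the 76 listed in these windows. The rule used position and name only and no measured value. It gave 29 genes on 2L, 17 on 3L, 4 on X and 7 on 3R. Distance is counted from the edge of the gene that faces the end of the assembled arm.

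The study asked what happens in early embryos when histone H3 lysine 9 (H3K9) can no longer be methylated. TM (triple mutant) embryos came from crosses in which both parents were homozygous knockouts for the methyltransferase gene Su(var)3-9, and small hairpin RNAs against G9a and dSetDB1 (egg in the table) were expressed in the maternal germline from a maternal tubulin Gal4 driver on the second chromosome. Control (ctr) embryos carry the label wildtype, and the labels name the crosses NI762xNI746 for TM and T180xNI746 for ctr, so that the name NI746 is shared. If the labels name the knockout parents described above, NI746 brought a Su(var)3-9 knockout allele into the ctr cross too. Which alleles the ctr embryos carry is not given in the sources used here. The dose of this gene in ctr, and so the size of its difference from TM, is not known. Both groups were hand-staged cycle 14 embryos, the stage of major zygotic genome activation. Nascent RNA was labelled in isolated nuclei and sequenced (global run-on sequencing, GRO-seq) in 4 TM and 3 ctr libraries. The hairpins act in the germline only, single recombinant males founded the modified stocks, and the stocks may differ in sequence near these ends, so that genetic background and loss of methylation cannot be told apart in these values.

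Fly telomeres are not made by telomerase. The chromosome ends carry arrays of the retrotransposons HeT-A, TART and TAHRE, followed inward by subtelomeric repeats (TAS), and a capping complex with the HOAP protein and HP1a protects them. Transgenes inserted in TAS repeats are often silenced, which is known as telomere position effect. The genes next to these repeats are ordinary single-copy genes, among them l(2)gl, the neoplastic tumour suppressor lethal giant larvae at the tip of 2L, and Map205, a microtubule-associated protein gene near the tip of 3R. In the assembled windows, 9 annotated fragments of HeT-A, TART or TAHRE, counted together, lie on X between positions 103614 and 122812, outside the outermost X gene. No fragment of these families is annotated in the windows of 2L, 3L and 3R. The 3R window holds 19 invader4 and 18 INE-1 fragments, and the 3L window 26 INE-1 fragments.

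The stretches upstream of 4 genes are shown because the values below turn on these genes: CR11023 and mthl8 are the outermost genes of 2L and 3L, and asRNA:CR44987 and Pdk1 had the smallest adjusted p-values in each direction. Each stretch was read from the reference genome (dm6) on the strand of its gene and ends at the base before the annotated start, except that the 61 bases nearest to the start of asRNA:CR44987 lie in an annotated untranslated exon of galectin and are left out. Capitals mark TATAAA. CR11023 is at chr2L:7279-7528 (plus strand), mthl8 at chr3L:22178-22427 (plus), asRNA:CR44987 at chr2L:73898-74086 (minus) and Pdk1 at chr3L:129200-129449 (plus).
CR11023: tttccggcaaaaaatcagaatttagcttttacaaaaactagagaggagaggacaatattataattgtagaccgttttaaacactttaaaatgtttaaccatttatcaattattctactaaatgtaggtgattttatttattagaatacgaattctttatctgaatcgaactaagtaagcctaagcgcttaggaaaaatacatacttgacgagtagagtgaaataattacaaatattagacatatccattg
mthl8: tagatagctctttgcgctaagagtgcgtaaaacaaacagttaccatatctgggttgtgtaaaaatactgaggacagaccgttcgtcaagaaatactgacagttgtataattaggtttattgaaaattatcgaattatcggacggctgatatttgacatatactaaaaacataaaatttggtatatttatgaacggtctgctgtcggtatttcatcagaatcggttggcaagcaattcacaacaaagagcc
asRNA:CR44987: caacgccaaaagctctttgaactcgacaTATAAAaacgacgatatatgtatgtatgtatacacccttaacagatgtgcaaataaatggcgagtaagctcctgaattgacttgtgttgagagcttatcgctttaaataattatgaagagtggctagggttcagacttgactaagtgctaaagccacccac
Pdk1: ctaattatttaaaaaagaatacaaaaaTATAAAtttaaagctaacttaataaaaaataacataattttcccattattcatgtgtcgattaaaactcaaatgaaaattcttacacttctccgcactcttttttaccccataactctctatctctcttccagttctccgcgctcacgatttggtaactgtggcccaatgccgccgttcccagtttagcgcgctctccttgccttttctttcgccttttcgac

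Motifs were searched on both strands in the 300 bases around each gene start (250 before and 50 after). TATAAA was found at 31 of the 57 genes (54.4%), against 44.3% of 17676 promoters of all genes. TATCGATA, the DNA replication-related element, was found at 6 genes (10.5%, against 7.60% of all promoters), among them Map205, rno and tyn. CAGGTA, a core of the sites bound by the early activator Zelda, was found at Vdup1 only (1.75%, against 6.34% of all promoters), and GAGAGAG, bound by GAGA factor, at heph only (1.75%, against 5.62%). A match describes letters in this window and says nothing about binding.

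Of the 57 genes, 48 averaged at least 10 counts per library and were tested, and 9 passed an adjusted p of 0.05 (edgeR, adjusted over all 10917 genes tested), 3 of them higher and 6 lower in TM. These 9 are 18.8% of the genes tested, beside 10.8% of all genes (4.45% higher and 6.38% lower). mthl8, asRNA:CR44987 and heph rose, and Cda5, dbr, Nhe1, Sam-S, Pdk1 and RhoGAP1A fell. Without the ctr replicate 2 library only 5 passed (2 higher and 3 lower), and without the TM replicate 4 library, which stood farthest from the other libraries of its group (chi-square per degree of freedom 80.1 to 199 over 3880 genes, against 25.4 to 63.2 among the other TM pairs), 11 passed. The median log2 fold change over the 48 genes was 0.02, beside 0.03 over all genes tested, with 25 genes above 0 and 23 below. All TM libraries lay on the same side of all ctr libraries for 16 of the 48 genes (33.3%), 8 higher and 8 lower, beside 23.4% of all genes tested. At an unadjusted p under 0.05 there were 16 genes (33.3%), beside 24.0% of all genes tested.

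**Figure D1:**
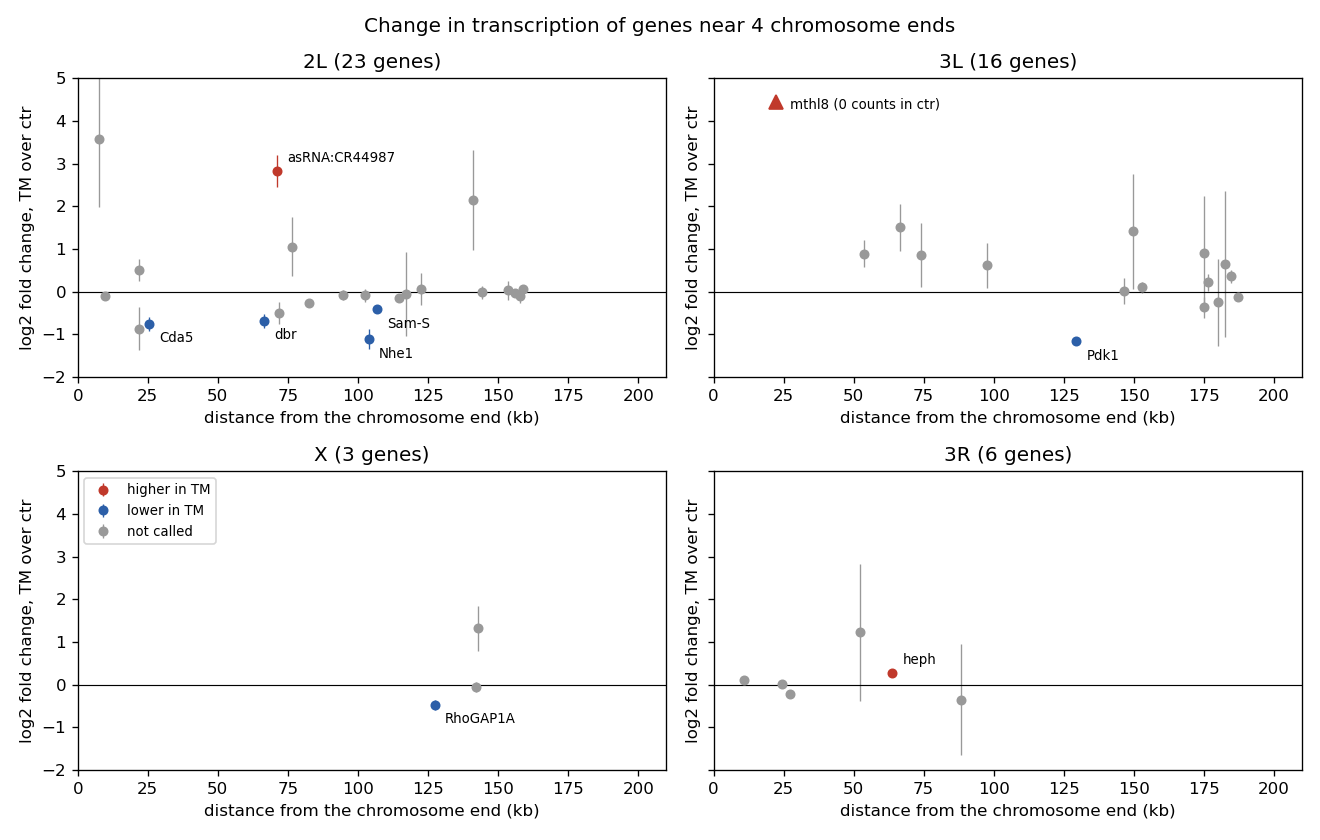
Log2 fold change of TM over ctr (vertical axis, with standard errors) against distance from the chromosome end in kb (horizontal axis) for the 48 genes tested, in 4 panels by arm. Red points passed the test as higher in TM, blue points as lower, and grey points did not pass. mthl8, with 0 counts in every ctr library, is drawn as a triangle at the upper margin because its fitted fold depends on the prior count.

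On 2L, where 23 of 29 genes were tested, 1 gene rose and 4 fell, and all 5 lie between 25.4 and 107 kb from the end. The gene nearest to the end was CR11023, a pseudogene 7.53 kb away, with 2.90, 1.59, 1.41 and 1.0 counts per 1000000 (CPM) in the TM libraries and 0.416, 0 and 0 CPM in the ctr libraries. These are 20 to 64 counts per TM library and 8, 0 and 0 counts per ctr library, and although the groups did not overlap the gene did not pass the test (log2 fold change 3.59 ± 1.61 SE, edgeR adjusted p = 0.183). DESeq2 gave an adjusted p of 0.0293 for it, the other alternatives that counted the sense strand gave up to 0.336, and exon counts gave a log2 fold change of -0.35.

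Its neighbour l(2)gl, which works in cell polarity, is among the most transcribed genes of the windows. It had 1030, 1097, 1171 and 1053 CPM in TM and 1206, 1159 and 1111 CPM in ctr, overlapping groups with a log2 fold change of -0.09 ± 0.08 (SE; edgeR adjusted p = 0.548). Next inward, Ir21a, a receptor of cool-sensing neurons, averaged 3.36 ± 1.90 CPM in TM and 6.12 ± 2.12 in ctr (SD, n = 4 and 3, adjusted p = 0.329). The antisense gene inside it, asRNA:CR43609, averaged 20.4 ± 4.92 CPM in TM and 14.3 ± 3.62 in ctr (adjusted p = 0.234).

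Cda5, a chitin deacetylase-like gene of 40 kb, was lower in TM. It had 103, 114, 117 and 65.5 CPM in TM and 161, 157 and 189 CPM in ctr, with no overlap between the groups, a log2 fold change of -0.76 ± 0.17 (SE) and an adjusted p of 0.0177. Annotated transposable elements cover 15.8% of its body, including jockey and X elements. Without the ctr replicate 3 library the log2 fold change was -0.67 and the adjusted p 0.0622.

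The next stretch, from 66.5 to 76.3 kb by the outer gene edges, holds dbr, galectin and CG11374 on the plus strand and asRNA:CR44987 on the minus strand, which overlap or adjoin. asRNA:CR44987, on the minus strand against the ends of dbr and galectin, had 17.0, 13.9, 15.2 and 9.40 CPM in TM and 1.20, 2.44 and 2.16 CPM in ctr. Its lowest TM value was above its highest ctr value, and the log2 fold change of 2.84 ± 0.37 (SE; edgeR adjusted p = 0.000112) passed with each library left out in turn and under every alternative that used the sense strand. dbr, which encodes Debra, a protein that promotes breakdown of the Hedgehog pathway factor Ci, had 66.0, 80.1, 89.7 and 119 CPM in TM and 140, 156 and 130 CPM in ctr. Its log2 fold change was -0.68 ± 0.16 (SE; edgeR adjusted p = 0.0148), and the adjusted p was 0.0505 without TM replicate 2, 0.0554 without ctr replicate 1, 0.0674 without ctr replicate 2 and 0.0547 with scaling by library totals alone. galectin, a lectin gene, averaged 21.1 ± 7.56 CPM in TM and 29.9 ± 4.00 in ctr, and CG11374 3.87 ± 2.80 CPM in TM and 1.86 ± 1.17 in ctr (SD, n = 4 and 3), neither past the test (adjusted p = 0.239 and 0.391).

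net, a basic helix-loop-helix gene of wing vein patterning, had the highest level per length in ctr of all genes in the windows. It had 502, 524, 585 and 640 CPM in TM and 672, 688 and 652 CPM in ctr. The groups did not overlap, and the log2 fold change of -0.25 ± 0.09 (SE) did not pass (adjusted p = 0.0886), but it did without TM replicate 4 (log2 fold change -0.32, adjusted p = 0.00358).

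Nhe1 and Sam-S stand next to each other 104 and 107 kb from the end and were both lower in TM. Nhe1, a sodium/proton exchanger gene, had 11.6, 14.7, 11.3 and 9.45 CPM in TM and 21.2, 22.4 and 32.7 CPM in ctr, a log2 fold change of -1.11 ± 0.24 (SE; edgeR adjusted p = 0.00590) that became -0.89 with an adjusted p of 0.0580 without ctr replicate 3. Sam-S encodes S-adenosylmethionine synthetase, which makes the methyl donor that histone methyltransferases use. It had 143, 149, 170 and 183 CPM in TM and 210, 226 and 209 CPM in ctr, a log2 fold change of -0.41 ± 0.09 (SE; edgeR adjusted p = 0.00968), with an adjusted p of 0.0652 without ctr replicate 2. The groups did not overlap for either gene.

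None of the 9 tested genes of 2L from ND-15, a mitochondrial complex I subunit gene 114.7 kb from the end, to spen passed, with 0 at an unadjusted p under 0.05 and 0 called by DESeq2. spen, an RNA-binding regulator of many signalling pathways, had the most reads of all genes in the windows, with 1648, 1755, 1851 and 1875 CPM in TM and 1653, 1711 and 1736 CPM in ctr (log2 fold change 0.07, adjusted p = 0.676). CG31974 was the only gene of this stretch whose groups did not overlap, at 1.41 to 4.19 CPM in TM and 0 to 1.39 CPM in ctr (adjusted p = 0.287). The 6 untested genes of 2L included 5 that are wholly overlapped by another gene on the same strand, where the gene-body counting gave 0 by construction. In a separate table of exon counts, which covers all 57 genes, none of these 5 passed, with adjusted p-values of 0.517 to 0.837.

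**Figure D2:**
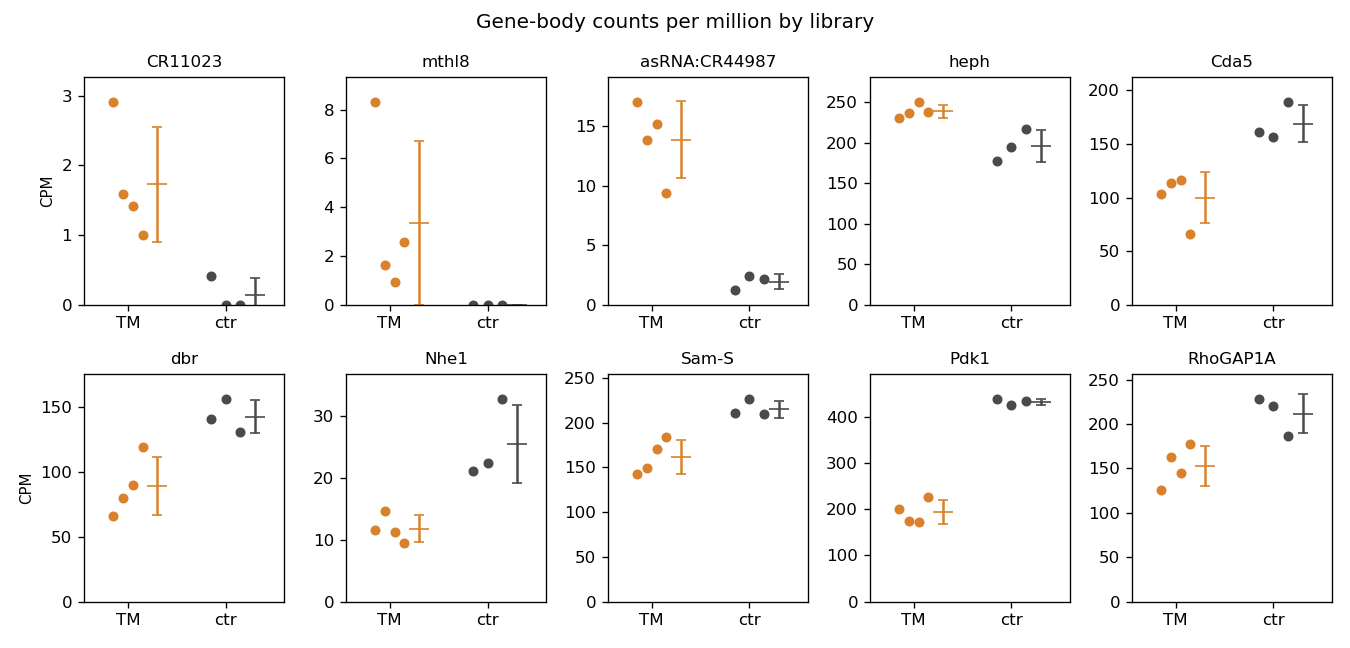
Gene-body CPM of each library (points; TM in orange, ctr in grey), with the mean and SD beside them, for CR11023 and the 9 genes that passed the test. Each panel has its own vertical axis starting at 0. All 4 TM libraries lie above the ctr libraries for CR11023, mthl8, asRNA:CR44987 and heph, and below them for the other 6 genes.

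On 3L, 16 of 17 genes were tested, and 1 rose and 1 fell. mthl8, a gene of the Methuselah-like family of G protein-coupled receptors 22.4 kb from the end, had 183, 36, 18 and 51 counts in the TM libraries and 0, 0 and 0 counts in the ctr libraries. In CPM these were 8.30, 1.64, 0.942 and 2.55, so that the TM values themselves ranged widely and TM replicate 1 was far above the rest. Against a floor of 3 counts per ctr library (0.152 CPM), transcription was at least 22.0-fold higher in TM, and at least 11.2-fold higher without TM replicate 1. The adjusted p was 0.00360, and it stayed at or below 0.0362 in the 13 alternatives that gave a value for this gene.

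The 4 genes that follow mthl8 inward, out to 98 kb, had few reads, with group means of at most 15.2 CPM. Per kb of gene body CG43149 stood at 9.30 CPM in ctr, above the median of 6.35 over the 48 genes tested. CG43149 had 13.9, 13.4, 14.4 and 19.0 CPM in TM and 6.40, 5.54 and 12.6 CPM in ctr, and Lsp1gamma, a larval serum storage protein gene, had 4.40, 5.91, 10.3 and 5.65 CPM in TM and 4.16, 1.91 and 0.842 CPM in ctr. The groups did not overlap for either gene, and neither passed (log2 fold changes 0.89 and 1.51, adjusted p = 0.0831 and 0.0955). CG43149 passed without ctr replicate 3 (adjusted p = 0.0202) and Lsp1gamma without ctr replicate 1 (adjusted p = 0.0408). CG13405 averaged 2.81 ± 1.09 CPM in TM and 1.54 ± 0.549 in ctr, and CG12483 4.81 ± 1.93 CPM in TM and 3.13 ± 1.76 in ctr (SD, n = 4 and 3), with overlapping groups.

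Summed over mthl8 and these 4 genes, the TM libraries had 33.0, 27.8, 35.8 and 34.3 CPM, and the ctr libraries 14.9, 10.9 and 19.6 CPM. The 5 genes had log2 fold changes above 0, with a median of 0.89, whereas the 11 tested genes of 3L from 129 kb inward had a median of 0.10. This split at 100 kb was drawn after the values were seen and was not tested. Over the whole table, the 3825 genes averaging 10 to 200 counts had a median log2 fold change of 0.32, beside 0.03 over all genes tested. The median was 0.98 over the 18 such genes in the windows, which include mthl8, Lsp1gamma, CG13405 and CG12483 themselves. CG43149 averaged more than 200 counts. The part of low counts in the values on 3L was not tested.

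Pdk1, which encodes the phosphoinositide-dependent kinase that activates Akt downstream of the insulin receptor, had the smallest adjusted p of all genes in the windows. At 129 kb from the end of 3L, it had 202, 174, 172 and 228 CPM in TM and 439, 426 and 435 CPM in ctr. The highest TM value was far below the lowest ctr value, with a log2 fold change of -1.16 ± 0.10 (SE; edgeR adjusted p = 7.97e-07). It passed under all 14 alternatives run for it, with log2 fold changes between -1.25 and -0.84. The genes beside it inward did not pass: CG6845 averaged 13.3 ± 5.74 CPM in TM and 13.2 ± 2.81 in ctr, and p130CAS, an adaptor of integrin signalling, 93.2 ± 15.1 CPM in TM and 86.9 ± 9.88 in ctr (SD, n = 4 and 3). rno, which encodes the PHD finger protein Rhinoceros, closed the 3L window with 420, 459, 498 and 393 CPM in TM and 506, 457 and 477 CPM in ctr (adjusted p = 0.477).

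The X window holds few genes, and its outermost, CG17636, is already 124 kb from the end, just inside the telomeric retrotransposon fragments. It had 0 to 7 counts per TM library and 0 to 14 per ctr library and was not tested. RhoGAP1A had 126, 163, 145 and 177 CPM in TM and 228, 221 and 187 CPM in ctr, groups that did not overlap (log2 fold change -0.47 ± 0.11 SE, edgeR adjusted p = 0.0113). The adjusted p was 0.0828 without ctr replicate 1 and 0.0690 without ctr replicate 2. tyn, a zona pellucida domain gene of the cuticle, averaged 132 ± 22.7 CPM in TM and 136 ± 8.33 in ctr (SD, n = 4 and 3). CG17707, which lies within tyn on the opposite strand, had 3.36, 3.59, 7.33 and 5.40 CPM in TM and 1.72, 2.48 and 1.68 CPM in ctr, without overlap and short of the test (log2 fold change 1.32, adjusted p = 0.134).

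On 3R, 6 of 7 genes were tested and 1 passed. Map205, 10.9 kb from the end, had 734, 719, 688 and 608 CPM in TM and 601, 672 and 643 CPM in ctr (adjusted p = 0.515). mod, which encodes the nucleic acid-binding protein Modulo, a known modifier of position-effect variegation, had 215, 213, 228 and 220 CPM in TM and 200, 210 and 238 CPM in ctr, a log2 fold change of 0.02 ± 0.08 (SE; edgeR adjusted p = 0.925). krz, the non-visual arrestin gene kurtz, had 146, 157, 170 and 162 CPM in TM, all below the 185, 186 and 181 CPM in ctr, and did not pass (log2 fold change -0.21, adjusted p = 0.119). heph, the gene of the polypyrimidine tract-binding protein Hephaestus, spans 169 kb. It had 230, 237, 249 and 238 CPM in TM and 177, 194 and 216 CPM in ctr, a log2 fold change of 0.29 ± 0.09 (SE; edgeR adjusted p = 0.0445), and it did not pass without TM replicate 2, TM replicate 3, ctr replicate 1 or ctr replicate 2 (adjusted p = 0.101, 0.119, 0.222 and 0.161). FBgn0267117 had 0 to 55 counts per TM library and 0 to 17 per ctr library (adjusted p = 0.712), and CG2003 0 to 70 per TM library and 22 to 39 per ctr library (adjusted p = 0.911).

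Spearman's rho between distance from the end and the level per kb in ctr was 0.11 over the 48 genes, and it differed in sign between the arms, at 0.26 over the 23 genes of 2L, 0.39 over the 16 of 3L and -0.77 over the 6 of 3R, where Map205, mod and krz lie outside FBgn0267117, heph and CG2003. Per kb of gene body not shared with another gene on the same strand, levels in ctr ran from 0 for mthl8 to 135 CPM per kb for net. l(2)gl, 9.84 kb from the end, had 94.3 CPM per kb in TM and 100.4 in ctr. Map205 had 52.2 CPM per kb in TM and 48.5 in ctr, and mod 75.1 in TM and 74.1 in ctr. CG3436, 156 kb from the end of 2L, had 98.5 CPM per kb in TM and 101 in ctr. The median level in ctr was 6.35 CPM per kb over the 48 genes, 13.01 over the 296 genes tested further inward to 1 Mb from the same ends, and 10.5 over all genes tested.

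**Figure D3:**
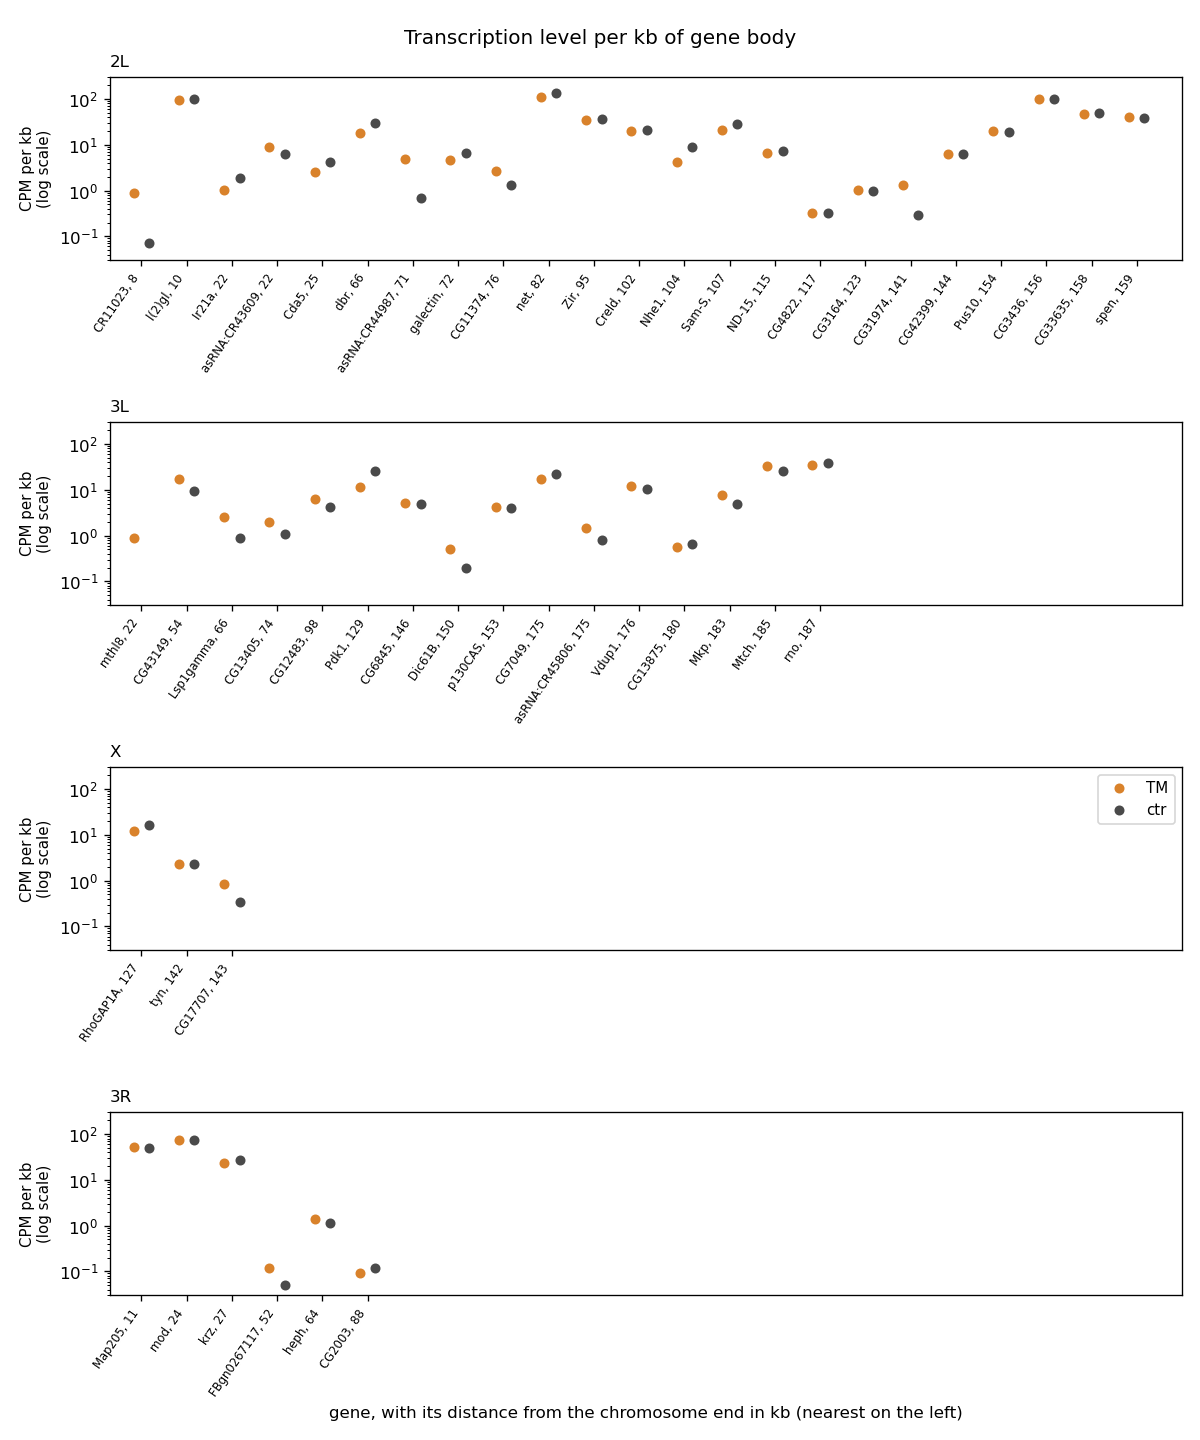
Mean gene-body level in CPM per kb (log scale) of the genes tested in TM (orange) and ctr (grey), by arm and in order of distance from the chromosome end, which is written in kb after each gene. mthl8 has no ctr point because it had 0 counts there. Neighbouring genes stand at very different levels, such as l(2)gl at 94.3 CPM per kb in TM next to CR11023 at 0.883.

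The outer edges of the genes that passed lay within the outer 150 kb, although the body of heph reaches inward past the 3R window limit. Each distance band held few tested genes. Beside 10.8% of all genes tested, 2 of 9 passed from 0 to 50 kb (22.2%) and 3 of 13 from 50 to 100 kb (23.1%). From 100 to 150 kb 4 of 14 passed (28.6%), and from 150 kb inward 0 of 12 (1 at an unadjusted p under 0.05, and 0 by DESeq2). Whether the bands differ was not tested. Median log2 fold changes in the same order were 0.02, 0.62, -0.05 and 0.05. Across the 48 genes, Spearman's rho between distance and log2 fold change was -0.06, and it was 0.16 over the 23 genes of 2L and -0.49 over the 16 genes of 3L, while rho between mean count and log2 fold change over the 48 genes was -0.50. These are descriptions over genes of the same libraries. In the genes from the windows inward to 1 Mb, 37 of 296 passed (12.5%), 18 higher and 19 lower, with a median log2 fold change of 0.07. At the inner limits, spen (2L, log2 fold change 0.07), rno (3L, -0.12), CG17707 (X, 1.32) and CG2003 (3R, -0.35) were the innermost genes taken by distance. The nearest genes left out were mRpL10 (0.44), mri (0.40), CG3038 (-0.38) and RhoGAP100F (0.97), of which mri and RhoGAP100F were called higher in TM.

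The separate table of exon counts was made from the trimmed reads with TEtranscripts, a tool that can also use reads mapping to several places, and its treatment of strand is not given in the sources used here. All 57 genes could be tested in it, and 7 passed (12.3%), beside 6.96% of all genes there. mthl8, CG43149, Lsp1gamma, galectin and CG11374 were higher in TM and Pdk1 and Sam-S lower. For mthl8 the exon counts were 217, 50, 19 and 51 in TM and 0, 0 and 0 in ctr (adjusted p = 0.00279), close to its gene-body counts. For asRNA:CR44987 they were 553, 667, 559 and 597 in TM and 562, 828 and 700 in ctr (log2 fold change -0.32, adjusted p = 0.292), and its rise in the sense gene-body counts was not seen in these. The log2 fold changes in gene bodies and exons had opposite signs for 14 of the 48 genes. galectin was among them, with -0.50 in sense gene-body counts (adjusted p = 0.239) and 1.12 in exons (adjusted p = 0.00757), and CG17707 had 1.32 in gene bodies and -0.43 in exons. dbr, Nhe1 and RhoGAP1A were lower in TM in exons too but did not pass (adjusted p = 0.120, 0.0816 and 0.0733). In exons, Cda5 had a log2 fold change of -0.05 (edgeR adjusted p = 0.842) and heph one of -0.04 (edgeR adjusted p = 0.911).

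Exons are part of the gene body, so where exon counts exceed the same-strand gene-body counts the extra reads could be from the opposite strand, reads that map to several places, reads shared with another gene or reads aligned differently, and these sources cannot be told apart here. Sense reads in introns are subtracted too, so the difference is not a count of such extra reads alone. It also changes where sense reads in introns change. This difference was examined after the values were seen, for the 50 genes not mostly covered by another gene on their strand. In 9 of them (18.0%) it was positive in TM and higher in every TM library than in any ctr library, beside 5.50% of 15955 genes, and in 4 (8.0%) it was positive in ctr and lower in every TM library, beside 3.39%. In Cda5 the difference was 84.8, 61.7, 63.8 and 84.5 CPM in TM and 6.14, 10.1 and 7.63 CPM in ctr. In CG11374 it was 25.0, 33.0, 22.3 and 25.2 CPM in TM and 8.17, 4.68 and 4.16 CPM in ctr. The groups were far apart for both genes. In Cda5 the log2 fold change was -0.05 in exon counts and -0.76 in sense gene-body counts, so the fall in gene-body counts is part of its difference. In CG11374 it was 1.99 in exon counts and 1.05 in sense gene-body counts. Annotated transposable elements cover 0% of the bodies of CG11374 and mod, against the 15.8% of Cda5.

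The difference was also higher in TM in genes of 3R and 3L. In mod it was 24.9, 19.1, 17.3 and 11.7 CPM in TM and 1.72, 0.382 and 1.47 CPM in ctr, while the sense level of mod was nearly the same in both groups. mod lies between Map205 and krz, which are both on the other strand. In CG43149 the means were 22.1 ± 2.83 CPM in TM and 9.94 ± 0.989 in ctr, and in Lsp1gamma 14.7 ± 3.64 CPM in TM and 5.17 ± 0.260 in ctr (SD, n = 4 and 3). dbr, galectin, Ir21a and Pos were the other genes on this side. Their sense gene-body means were lower in TM for dbr, galectin and Ir21a and higher for Pos. The 4 genes with a lower difference in TM were CR11023 (259 ± 23.5 CPM in TM, 326 ± 46.0 in ctr), asRNA:CR44987 (14.8 ± 5.18 in TM, 33.3 ± 4.69 in ctr), CG17707 (15.1 ± 0.626 in TM, 24.5 ± 5.71 in ctr) and CG42399 (17.8 ± 9.60 in TM, 31.9 ± 1.07 in ctr). Sense gene-body means were higher in TM for CR11023, asRNA:CR44987 and CG17707 and nearly the same for CG42399. asRNA:CR44987, CG17707 and CG42399 each overlap a gene on the other strand, and CR11023 ends next to l(2)gl, which is on the other strand.

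**Figure D4:**
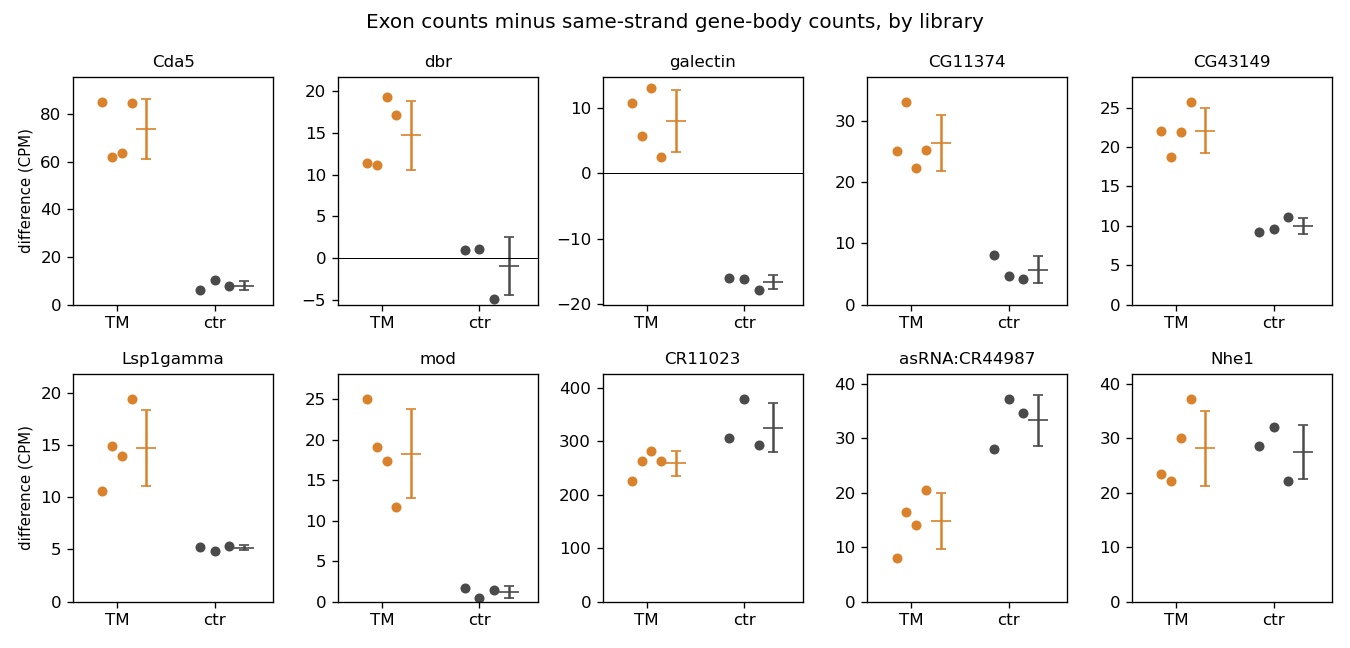
Exon counts minus same-strand gene-body counts in CPM for each library (points; TM in orange, ctr in grey), with the mean and SD beside them. TM libraries lie above ctr libraries for Cda5, dbr, galectin, CG11374, CG43149, Lsp1gamma and mod, below them for CR11023 and asRNA:CR44987, and among them for Nhe1. Values below 0 arise where introns hold more reads than the extra reads over exons.

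HETA, TART and TAHRE, the retrotransposons that form the telomeres, were higher in TM in the table that holds the exon counts. TAHRE had 129, 123, 121 and 118 CPM in TM and 36.0, 34.9 and 33.4 CPM in ctr (log2 fold change 1.82 ± 0.09 SE, edgeR adjusted p = 4.33e-09 over repeats). HETA had 198, 179.6, 183 and 228 CPM in TM and 76.7, 69.8 and 93.7 CPM in ctr, and TART 212, 217, 215 and 258 CPM in TM and 113, 88.2 and 105 CPM in ctr, both past the test with log2 fold changes of 1.30 and 1.15. TART_B1 did not pass, with 1.42 to 2.94 CPM in TM and 0.230 to 5.99 CPM in ctr (adjusted p = 0.979). Counts of a family cannot be placed on a particular chromosome end.

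**Figure D5:**
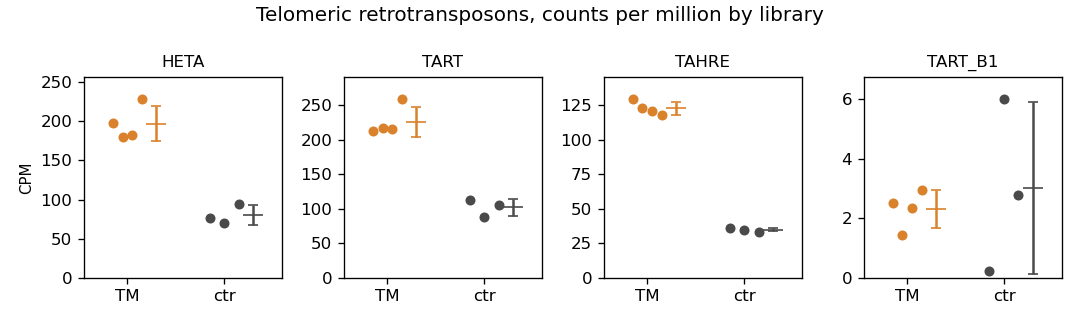
CPM of HETA, TART, TAHRE and TART_B1 in each library (points; TM in orange, ctr in grey), with the mean and SD beside them and vertical axes from 0. The TM libraries lie above all ctr libraries for HETA, TART and TAHRE, and overlap them for TART_B1.

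Genes of telomere capping and of the DNA repair proteins that act there were listed for comparison: 17 genes, of which 16 were tested. Of these, 0 rose and 1 fell (6.25%), beside 4.45% higher and 6.38% lower over all genes tested. At an unadjusted p under 0.05 there were 5 (31.25%), beside 24.0% of all genes tested. DESeq2 called 1 of the 16, beside 1483 of the 10917 genes tested. The gene that fell was peo, which encodes the capping factor Pendolino, with 159, 162, 138 and 172 CPM in TM and 189, 218 and 210 CPM in ctr (log2 fold change -0.38 ± 0.09 SE, edgeR adjusted p = 0.0129). cav, the gene of HOAP, had 118, 103, 135 and 119 CPM in TM and 115, 99.4 and 110 CPM in ctr (adjusted p = 0.470), and the gene of HP1a averaged 195 ± 5.64 CPM in TM and 203 ± 12.5 in ctr (SD, n = 4 and 3, adjusted p = 0.733). The median log2 fold change of the list was 0.02, beside 0.03 over all genes tested.

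Library totals were 18889493 to 22200059 gene-body counts in TM and 19547254 to 21298129 in ctr, and the 57 genes took 0.667 to 0.783% of them in TM and 0.742 to 0.767% in ctr. Of the targeted genes, G9a, which starts just inward of the X window at position 245978, had 2586 to 3242 counts in TM and 2814 to 3001 in ctr (adjusted p = 0.930), and egg 644 to 905 in TM and 539 to 767 in ctr (adjusted p = 0.729). Su(var)3-9 was at 0 in every library in gene bodies, because it lies within another gene on its strand, eIF2gamma, with which it also shares exons. In exon counts it had 4643, 4434, 3778 and 3818 in TM and 4757, 4572 and 4064 in ctr (log2 fold change -0.20, edgeR adjusted p = 0.180), so that no loss of the knocked-out gene was seen in the libraries labelled TM, and the share of these reads that belongs to eIF2gamma cannot be told apart. Of 6 markers of cycle 14 embryos 5 were tested, 0 passed (1 at an unadjusted p under 0.05) and 0 were called by DESeq2, with Sry-alpha at 0 in every library, and their summed level was 3135 to 7864 CPM in TM and 4171 to 5268 in ctr. Summed markers of older embryos were 51.0 to 59.5 CPM in TM and 49.1 to 56.5 in ctr, and those of ovary 16.1 to 50.5 CPM in TM and 32.2 to 67.9 in ctr, and their part in the values above was not tested.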

How the data were processed

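The authors trimmed reads with cutadapt, aligned them locally to dm6 (Bowtie2 2.3.3.1), discarded alignments of mapping quality under 3, and assigned same-strand reads to whole gene bodies by featureCounts (Subread 1.5.3), which leaves out reads shared by overlapping genes. These deposited counts are whole and not normalised. The authors also deposited expected counts of exons and repeat families from TEtranscripts, which were rounded here.

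Symbols came from the reference annotations by gene ID, or by position where the ID had none (CG3164), and 1 member had none and keeps its ID (FBgn0267117). Genes averaging at least 10 counts were fitted over all 7 libraries with edgeR 4.0.16 (TMM, quasi-likelihood, Benjamini-Hochberg over all genes) in R 4.3.3, tested on simulated data. CPM are TMM-scaled. DESeq2 1.42.0, other scalings and filters, exon counts, other windows and each library left out were the alternatives. Named genes were the 5 nearest tested genes and 2 highest levels per arm, those past the threshold, those at the window limits and the targeted genes. galectin, CG11374 and others named for exon counts were chosen after their values were seen. The members and lists were chosen with earlier results of these data known. The study describes the libraries as biological replicates. No sample was left out.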

Additional observations from a re-analysis of the deposited data

Results flagged for a closer look

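CG2003, a gene 88.4 kb from the end of 3R that lies within heph on the opposite strand, had a TM library far from the others: 13, 12, 70 and 0 counts in TM replicates 1 to 4, against 22, 39 and 30 in ctr. The gap of TM replicate 3 to the next library was 0.839 of the range of the TM group. Of 28 genes looked at this way 1 stood out, and about 1 in 20 would by chance.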

How the results depend on the processing

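Of 48 genes tested, 9 passed (3 higher, 6 lower), and this count was 8 to 11 with DESeq2, DESeq2 size factors, library totals alone, no count filter, a mean of at least 50 counts or the replicate block. The replicate numbers do not pair the libraries (correlations of same-numbered deviations were 0.0086, -0.0049 and -0.018), and the block gave 11 genes. In exon counts 7 passed, 5 higher and 2 lower, and there the log2 fold changes of asRNA:CR44987 (-0.319) and heph (-0.0414) had the opposite sign, as did those of 12 other genes, among them galectin, which passed as higher there. Leaving out each library gave 5 to 11 genes, 2 to 4 higher and 3 to 8 lower, and medians over the genes tested of -0.03 to 0.06. Windows reaching 0.5 of the distance held 22 tested genes, of which 5 passed (3 higher, 2 lower). Windows reaching 2 times the distance held 154, of which 26 passed (17 higher, 9 lower). In both, more genes were higher than lower, unlike in the main windows. Over all genes tested 10.8% passed, 4.45% as higher and 6.38% as lower. In the main windows, leaving out genes mostly overlapped by another left 9 that passed. Pdk1 and mthl8 passed under every alternative that gave a value, and asRNA:CR44987 under all but exon counts. By depth, 2 of the 18 tested genes averaging 10 to 200 counts passed and 7 of the 30 with more, beside 5.59% and 13.7% of all genes of these classes.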

Other observations

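Of the 18 long noncoding genes left out by name in the same windows, 13 averaged at least 10 counts. Of these, 1 was higher in TM by edgeR (7.69%, beside 4.45% of all genes tested), and 2 were called by DESeq2. Their median log2 fold change was 0.94, beside 0.03 over all genes tested. Most of them had low counts, and the median was 0.32 over all genes averaging 10 to 200 counts. The gene that passed, lncRNA:CR45805, lies within Pdk1 on 3L and had 146, 238, 241 and 268 counts in TM and 99, 39 and 84 in ctr (adjusted p = 0.0243), while Pdk1 itself was lower in TM. lncRNA:CR40469, at the inner edge of the telomeric retrotransposon fragments on X, had 614, 438, 422 and 157 counts in TM and 1000, 773 and 665 in ctr (adjusted p = 0.0717), groups that did not overlap.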
